A study of Mus musculus with 17 samples.

Results

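Klf9 encodes a Krüppel-like zinc-finger transcription factor, and its noncoding neighbourhood was followed here through the first postnatal week of the mouse heart. The neighbourhood is a stretch of chromosome 19 around the gene, chosen by position after the FPKM of rows in it had been seen to differ between ages. In the coordinates of the deposited tables its rows run from 23064969 to 23242609. Of 23940 rows of noncoding features, 8 lay wholly inside it, and 5 of those reached at least 0.1 FPKM (fragments per kilobase of row length, scaled to library depth) in at least 2 libraries and were tested, among 11079 rows of the whole series. A further row, NONMMUT034204, crossed the lower end of the stretch.

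Male C57Bl/6 mice gave tissue of the right ventricle (RV) and the left ventricle (LV) for RNA sequencing. Hearts were taken at postnatal day 0 (P0, before the ductus arteriosus closes), day 3 (P3, a transition stage) and day 7 (P7, when most heart muscle cells have reached terminal differentiation). All groups share strain and sex, and the labels name no treatment. Each group held 3 biological replicates, except RV P7, which held 2. Strand-specific paired-end libraries of total RNA were made, and the 17 libraries held between 13.8 and 20.5 M fragments as inferred from the steps of low values. RV P3 replicate 2 had the lowest depth and the most rows listed at 0, 49.2% against 34.1% in the library with the fewest. The tables pair no row with a gene name, so markers of heart muscle could not be looked up by symbol. In ventricle tissue, fewer cells of a type and less RNA per cell cannot be told apart.

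Klf9 is a known target of the glucocorticoid and thyroid hormone receptors, and both hormones take part in the maturation of heart muscle around birth. Noncoding transcripts often arise just upstream of an active gene start, where they may share the open promoter with the gene. A row over the last exon of a coding gene, in contrast, can hold fragments of the messenger RNA itself. This holds when the row lies on the strand of the gene or when strand is not used in counting.

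The rows were placed relative to Klf9 by their spacing. The positions in the tables are taken to be those of the older assembly mm9, and no position was converted. NONMMUT034207 has the same span, 818 bases, as the annotated lincRNA 2410080I02Rik on GRCm38, and NONMMUT034204 the same span, 97695 bases, as the lincRNA C330002G04Rik. In all, 8 rows from 7 genes of this part of chromosome 19 had the same span as a GENCODE M21 transcript and the same distance from that row in both coordinate systems. Of these genes, 6 lay before Klf9 and 1, Pip5k1b, beyond it, so the distances below assume equal spacing between them.

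On that spacing the rows fell upstream of Klf9, within its intron and over its last exon. Farthest out, 146 kb before the Klf9 start and within the stretch of C330002G04Rik, lay NONMMUT034197 with NONMMUT034198 and NONMMUT034199, all at 23064969 to 23069896. NONMMUT034207, at 23209390 to 23210207, ended 5508 bases before the start. The assembled transcripts TCONS_00030581, at 23212270 to 23213530, and TCONS_00030582, at 23213796 to 23215171, ended 2185 and 544 bases before it, with 265 bases between them. NONMMUT034209, at 23222919 to 23225158, lay in the intron of Klf9, over the annotated microRNA gene Mir1192. NONMMUT034211, at 23241603 to 23242609, lay wholly in the 3′ untranslated part of the last Klf9 exon and ended 15 bases before the annotated end of the gene. The tables give no strand and the counting is not given in the sources used here, so fragments of NONMMUT034211 and of Klf9 messenger RNA cannot be told apart.

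**Figure D1:**
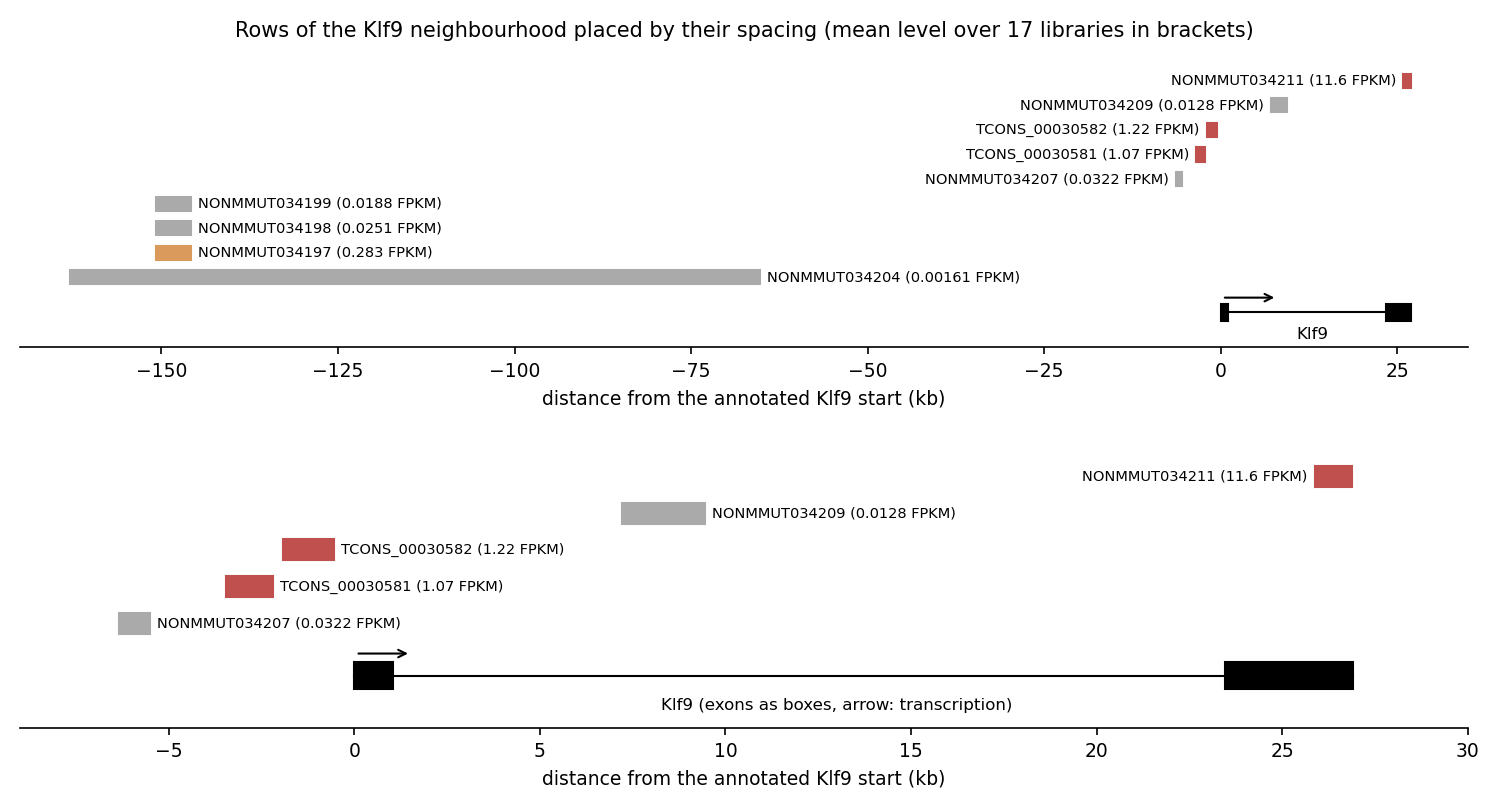
Rows of the Klf9 neighbourhood by distance from the annotated Klf9 start (kb), for the whole stretch (top) and around the gene (bottom). Red rows had a mean of at least 1 FPKM over the 17 libraries, orange at least 0.1 FPKM and grey less, and Klf9 exons are black boxes. The 3 red rows sit directly before the start and at the end of the gene.

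On the spacing used here, 544 bases lie between TCONS_00030582, the nearest upstream row, and the Klf9 start. Only the part of this gap next to the gene is shown, and the rest was not searched for motifs. The 250 bases before the Klf9 start are given from RefSeq at chr19:23140976-23141225 of GRCm38.p6, plus strand. Capitals mark the motif matches described next.
Klf9 promoter: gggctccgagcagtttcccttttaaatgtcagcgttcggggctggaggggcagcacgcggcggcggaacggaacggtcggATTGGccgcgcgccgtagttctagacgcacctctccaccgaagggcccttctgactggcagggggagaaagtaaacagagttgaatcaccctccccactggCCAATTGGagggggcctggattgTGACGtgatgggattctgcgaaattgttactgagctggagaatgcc

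Of these bases, 59.6% were G or C. On both strands, 6 motifs were searched. The CCAAT box (CCAAT), bound by the factor NF-Y, matched 3 times, first at -170 from the start on the minus strand, and then at -69 and -66 on opposite strands, where the 2 matches overlap. It occurs in 33.8% of the 32851 RefSeq promoter windows of this length. The cAMP-response half-site (TGACG), bound by CREB proteins, matched once at -46 and occurs in 17.8% of windows. The letters of the glucocorticoid receptor half-site (AGAACA, in 16.1% of windows), the nuclear receptor half-site (AGGTCA, in 14% of windows), the GC box (GGGCGG, in 32.7% of windows) and the E-box (CACGTG, in 6.02% of windows) are not in this window.

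NONMMUT034211 at the end of Klf9 was the most abundant row, with a mean of 11.6 FPKM over the 17 libraries, and only 132 tested rows had a higher mean. In RV it measured 2.97, 9.62 and 6.03 FPKM at P0, 12.7, 13.5 and 12.4 FPKM at P3, and 14.8 and 13.6 FPKM at P7. In LV it measured 4.46, 9.65 and 6.98 FPKM at P0, 13.95, 12.9 and 11.5 FPKM at P3, and 20.2, 15.9 and 15.9 FPKM at P7. The ages did not overlap in either ventricle, and the lowest P3 library stood above the highest P0 library in both. Here and below, the share of all tested rows without overlap between ages was not counted. The RV means were 6.21 ± 3.33 (SD, n = 3), 12.9 ± 0.581 (SD, n = 3) and 14.2 ± 0.894 FPKM (SD, n = 2) at P0, P3 and P7, and the LV means 7.03 ± 2.59, 12.8 ± 1.23 and 17.3 ± 2.44 FPKM (SD, n = 3 each). The P7 mean was 2.29 times the P0 mean in RV and 2.47 times in LV.

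The pair of assembled transcripts before the start had lower levels and the same order of ages. TCONS_00030582, the nearer one, measured 0.570, 0.938 and 0.340 FPKM at P0, 1.60, 1.45 and 1.07 FPKM at P3, and 2.35 and 1.95 FPKM at P7 in RV. In LV it measured 0.407, 0.620 and 0.769 FPKM at P0, 1.14, 1.13 and 1.04 FPKM at P3, and 2.19, 1.42 and 1.68 FPKM at P7. Here too no age overlapped the next in either ventricle. The P7 mean was 3.49 times the P0 mean in RV and 2.94 times in LV.

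TCONS_00030581, the farther one, measured 0.222, 0.381 and 0.328 FPKM at P0, 0.855, 1.47 and 1.24 FPKM at P3, and 1.89 and 1.40 FPKM at P7 in RV. In LV it measured 0.328, 0.624 and 0.452 FPKM at P0, 1.27, 1.004 and 1.46 FPKM at P3, and 1.87, 0.979 and 2.396 FPKM at P7. P3 stood above P0 without overlap in both ventricles, whereas P3 and P7 overlapped in both, so these neighbours in the order of ages do not differ beyond their spread. The P7 mean was 5.30 times the P0 mean in RV and 3.74 times in LV. Values of both transcripts fell on multiples of 0.5 fragments in 17 of 17 libraries, within 0.05 of a step. They rest on 5.002 to 55.0 fragments per library for TCONS_00030581 and 8.50 to 58.5 for TCONS_00030582, with the fewest in P0 libraries.

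Far upstream, NONMMUT034197 had overlapping ages in RV and its highest values in the P7 libraries of LV. In RV it measured 0.427, 0.126 and 0.217 FPKM at P0, 0.202, 0.152 and 0.268 FPKM at P3, and 0.160 and 0.338 FPKM at P7. In LV it measured 0.179, 0.189 and 0.0998 FPKM at P0, 0.182, 0.332 and 0.161 FPKM at P3, and 0.753, 0.522 and 0.505 FPKM at P7. The P7 libraries of LV lay above all other libraries of the row. The P7 mean was 0.969 times the P0 mean in RV and 3.80 times in LV.

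**Figure D2:**
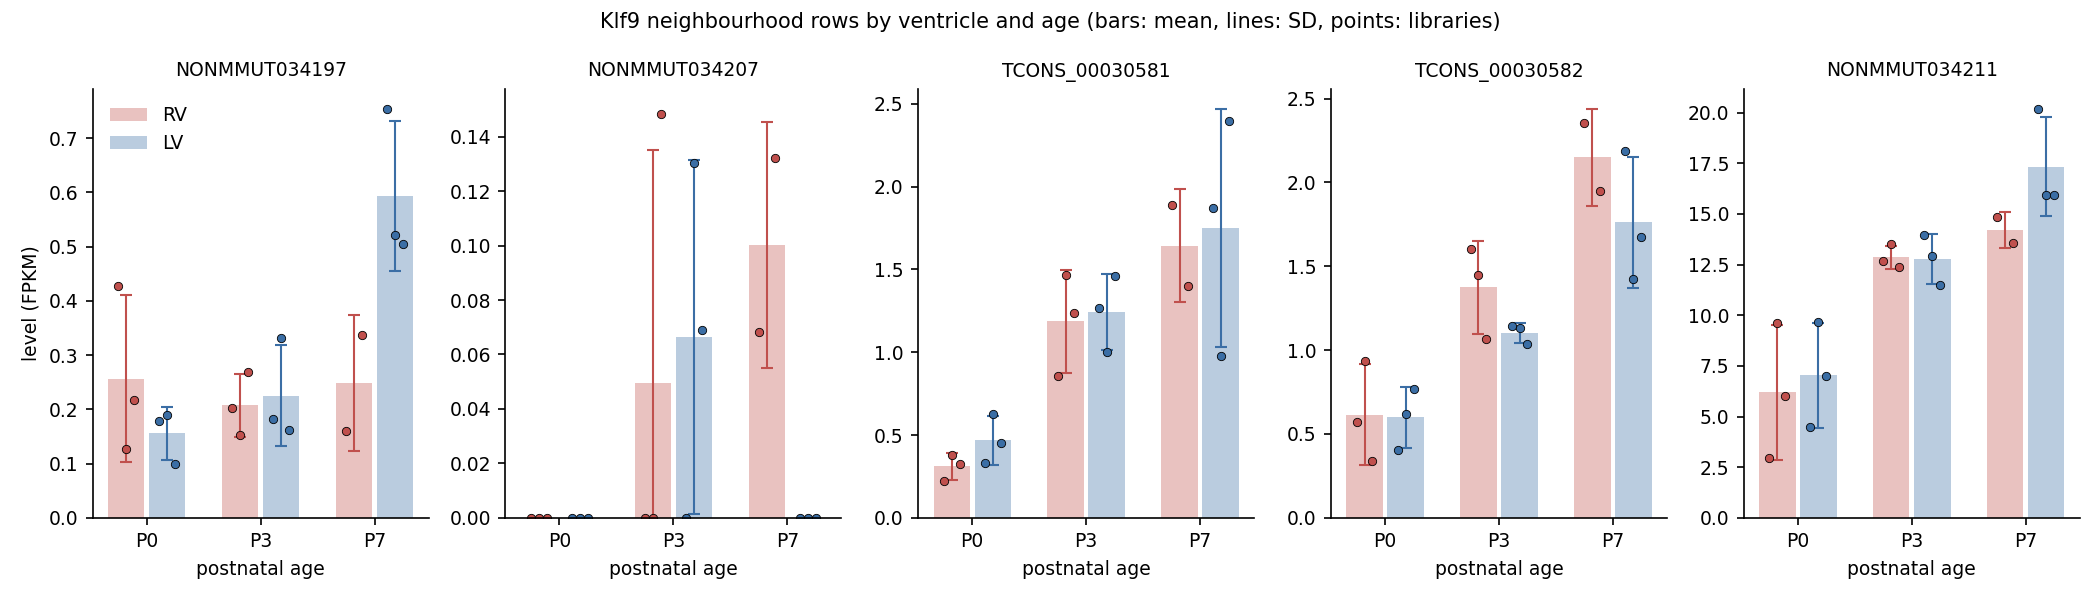
Level in FPKM of the 5 tested rows by postnatal age, each panel with its own scale from 0, with RV in red and LV in blue. Bars are means, lines SD and points libraries, with n = 3 except RV P7 with n = 2, and the 3 rows on the right were higher at P3 and P7 than at P0 in both ventricles.

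The other rows were at or near 0. NONMMUT034207, the row with the span of 2410080I02Rik, was above 0 in 5 of 17 libraries, with at most 0.148 FPKM or about 2.02 fragments. Its libraries above 0 were LV P3 replicates 2 and 3, RV P3 replicate 3 and both RV P7 libraries. NONMMUT034198 and NONMMUT034199, which share their position with NONMMUT034197 and can share its reads, reached at most 0.0652 and 0.0767 FPKM. The intronic NONMMUT034209 reached 0.0478 FPKM and was above 0 in 8 libraries. NONMMUT034204 was above 0 in 1 library only, RV P0 replicate 1, at 0.0273 FPKM.

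The surroundings held little else. The windows of the same length directly before and after the stretch contained 2 rows and 1 row, none of which passed the filter, and their highest value in any library was 0.0755 FPKM. The nearest tested row beyond Klf9, NONMMUT034218 at 23804523 to 23806151, lay 555 kb away. It averaged 2.25, 2.33 and 1.89 FPKM in RV and 2.54, 2.41 and 2.23 FPKM in LV at P0, P3 and P7, so its means did not share the order of the Klf9 rows.

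Differences were fitted over all 11079 rows with limma on log2(FPKM + 0.1), a scale that understates the change of low rows. The neighbourhood was picked with results of these libraries in view, so the differences between ages are a description, without p values. From P0 to P7 the log2 difference in RV was 2.09 ± 0.36 (SE) for TCONS_00030581, 1.73 ± 0.33 for TCONS_00030582, 1.33 ± 0.33 for NONMMUT034211 and 0.01 ± 0.41 for NONMMUT034197. In LV it was 1.65 ± 0.32 (SE) for TCONS_00030581, 1.43 ± 0.30 for TCONS_00030582, 1.35 ± 0.30 for NONMMUT034211 and 1.44 ± 0.37 for NONMMUT034197. Over all tested rows the median was -0.27 in RV and -0.32 in LV, and the median over the 5 rows was 1.33 in RV and 1.43 in LV. NONMMUT034207 was listed at 0 in all P0 libraries and in all LV P7 libraries, so no fold is given for it.

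At an adjusted p under 0.05, 3 of the 5 rows were called higher and 0 lower at P7 in RV, where 1.83% of all tested rows were called higher, 3.72% lower and 5.55% in either direction. In LV, 4 of the 5 were called higher and 0 lower, where 2.6% were called higher, 8.64% lower and 11.2% in either direction. The choice of the rows used these contrasts, so nothing is read from the counts. Without RV P7 replicate 1 the RV count was 1, namely TCONS_00030581. The call of NONMMUT034197 in LV was lost without LV P0 replicate 3 or LV P7 replicate 1, at log2 differences of 1.27 and 1.28. The call of NONMMUT034211 in RV was lost without RV P0 replicate 1, at 0.89, and without either RV P7 library. It was also lost without the filter on low values or without the variance trend, where the RV count was 2.

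The 3 rows at the gene had higher means at P3 than at P0 and at P7 than at P3, and the sizes of the 2 steps were not compared by a test. From P0 to P3 the log2 difference in RV was 1.64 ± 0.32 (SE) for TCONS_00030581, 1.11 ± 0.30 for TCONS_00030582 and 1.19 ± 0.30 for NONMMUT034211. In LV it was 1.26 ± 0.32, 0.82 ± 0.30 and 0.92 ± 0.30 (SE) for the same rows in that order. From P3 to P7 it ranged from 0.14 to 0.62 in RV and from 0.39 to 0.61 in LV for these rows. Of the 5 rows, 2 were called higher at P3 in RV, TCONS_00030581 and NONMMUT034211, where 1.44% of all tested rows were called higher, 1.03% lower and 2.46% in either direction. In LV 1 of the 5 was called higher at P3, TCONS_00030581, where 0.966% were called higher, 0.921% lower and 1.89% in either direction. Leaving out 1 library at a time took the LV count to 0 for 11 of the 17 libraries, and the RV count to 1 for 5 of them. Between P7 and P3, 0 of the 5 rows were called in either ventricle, where limma called 0.226% of all tested rows higher, 0.514% lower and 0.74% in either direction in RV, and 0.271% higher, 1.07% lower and 1.34% in either direction in LV. An unadjusted p under 0.05 was found for 0 of the 5 rows in RV, where 1251 of the 11079 tested rows had one. In LV it was found for 1 of the 5, the far upstream NONMMUT034197, where 1566 of the tested rows had one. The choice of the rows used differences between ages, so nothing is read from these counts either.

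The upstream rows were also compared with the end row within each library, as a share of its level per length. TCONS_00030582 stood at 11.5 ± 6.96% (SD, n = 3), 10.7 ± 2.03% (SD, n = 3) and 15.1 ± 1.07% (SD, n = 2) of the FPKM of NONMMUT034211 in RV at P0, P3 and P7. In LV its share was 8.85 ± 2.30%, 8.65 ± 0.418% and 10.1 ± 1.02% (SD, n = 3 each). TCONS_00030581 stood at 5.63 ± 1.77% (SD, n = 3), 9.20 ± 2.16% (SD, n = 3) and 11.5 ± 1.69% (SD, n = 2) in RV, and at 6.77 ± 0.513%, 9.86 ± 2.55% and 10.2 ± 4.51% (SD, n = 3 each) in LV. The shares of TCONS_00030581 had their lowest means at P0, but P0 overlapped P3 in RV and P7 in LV. Those of TCONS_00030582 overlapped between P0 and P3 in both ventricles, and no difference between shares was tested.

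The ventricles themselves were not used to choose the rows and were tested. Over the 3 ages, RV minus LV was 0.18 for TCONS_00030582 (95% interval -0.19 to 0.56), -0.18 for TCONS_00030581 (-0.58 to 0.22), -0.18 for NONMMUT034211 (-0.55 to 0.20), -0.22 for NONMMUT034197 (-0.68 to 0.24) and 0.26 for NONMMUT034207 (-0.19 to 0.70) on the log2 scale. The limma adjusted p values lay between 0.88 and 0.916, and the intervals are not adjusted. None of the 5 rows was called, where 0.00903% of all tested rows were, and 0 of the 5 had an unadjusted p under 0.05, where 765 of the 11079 tested rows had one. For the 3 rows next to or in Klf9, the intervals reached at most 0.58 in size. The intervals and the unadjusted count treat the libraries as unpaired. A fit that matched RV and LV libraries of one number at each age also called 0 of the 5 rows. There the SE of NONMMUT034211 was 0.080 instead of 0.178, at a difference of -0.19 (limma adjusted p = 0.52). For TCONS_00030581, TCONS_00030582 and NONMMUT034197 the SE was 0.15, 0.18 and 0.24, against 0.19, 0.18 and 0.22 unpaired. So the interval of NONMMUT034211 depends on whether replicate numbers are used. The unadjusted count of 0 of the 5 rows was not repeated with the matched fit.

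At single ages 0 of the 5 rows were called by limma. At P0 and at P3, 0 of the 5 had an unadjusted p under 0.05, where 587 and 651 of the 11079 tested rows had one. At P7 2 of the 5 had one, where 495 of the 11079 did. NONMMUT034197 averaged 0.249 ± 0.126 FPKM in RV (SD, n = 2) and 0.593 ± 0.139 FPKM in LV (SD, n = 3) at P7. The groups did not overlap, and the log2 difference was -1.02 ± 0.41 (SE; limma unadjusted p = 0.0219, adjusted p = 1). NONMMUT034207 was above 0 in both RV libraries and in no LV library at P7, on 1.01 and 2.02 fragments (limma unadjusted p = 0.0231, adjusted p = 1). NONMMUT034211 measured 13.6 and 14.8 FPKM in RV against 15.9 to 20.2 FPKM in LV at P7, also without overlap, with a log2 difference of -0.28 ± 0.33 (SE; limma adjusted p = 1). With 2 libraries against 3, groups can separate without a difference between ventricles. The share of all tested rows without overlap was not counted, so nothing is read from the lack of overlap. At P7, 0.00903% of all tested rows were called.

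The difference between RV and LV in the P0 to P7 change was -1.43 ± 0.55 (SE) for NONMMUT034197 on the log2 scale (limma unadjusted p = 0.0174, adjusted p = 1). It was 0.44 ± 0.48 for TCONS_00030581, 0.30 ± 0.45 for TCONS_00030582 and -0.02 ± 0.44 for NONMMUT034211 (SE; limma adjusted p = 1 for each). No row of the series was called in this test, and 454 of 11079 had an unadjusted p under 0.05. So the far upstream row, whose P7 mean was above its P0 mean in LV and not in RV, had a difference between ventricles that failed the correction.

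**Figure D3:**
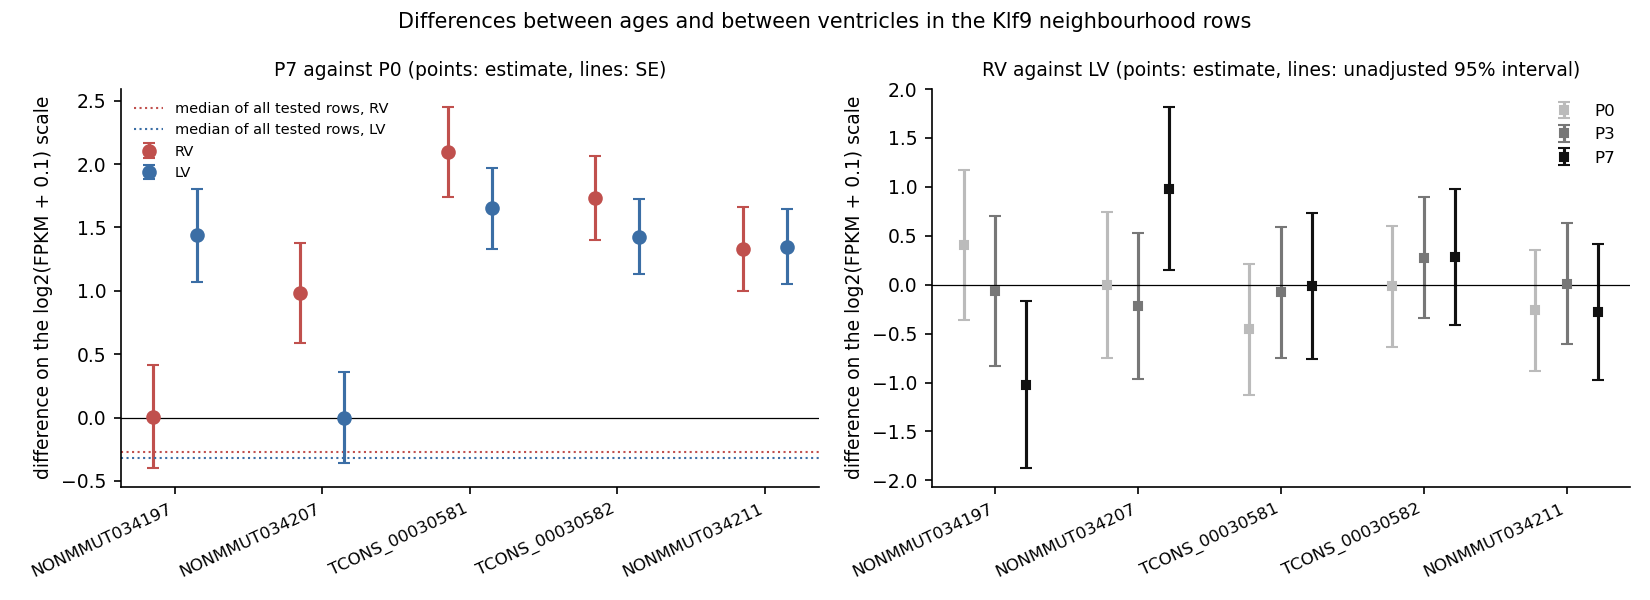
Log2 differences of the 5 tested rows for P7 against P0 (left, lines are SE, RV red and LV blue, dotted lines the medians of all tested rows) and for RV against LV at each age (right, lines are unadjusted 95% intervals). The TCONS rows and NONMMUT034211 lie between 1.33 and 2.09 on the left, and most intervals on the right span 0.

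Whether the rows moved together library by library was tested on deviations from the mean of each group, which takes out the age pattern. Over the 10 pairs of tested rows, 0 passed a Benjamini-Hochberg adjusted p of 0.05 in an exact permutation test, two-sided, over the 15552 reorderings within groups. Pairs with NONMMUT034207 could hardly pass. That row was at 0 in all P0 and LV P7 libraries, so few of its reorderings differ. These pairs still count in the adjustment of the others. TCONS_00030581 and NONMMUT034211 had Pearson's r = 0.52 and Spearman's rho = 0.49 over 17 libraries (exact permutation p = 0.032, adjusted p = 0.320). Their r was 0.33 with a pseudocount of 1. It was 0.61 without LV P7 replicate 2 and RV P3 replicate 1, the 2 libraries farthest from the median of TCONS_00030581. RV P0 replicates 1 and 2, farthest for NONMMUT034211, stayed in. Below, too, the 2 farthest libraries are those of the first row of a pair, TCONS_00030581 for the 2 upstream transcripts. TCONS_00030582 and NONMMUT034211 had r = 0.50 and rho = 0.58 (exact permutation p = 0.304, adjusted p = 0.423), and r was 0.47 without the 2 farthest libraries. This r rests on single libraries, since it was 0.16 without RV P0 replicate 2 and ranged up to 0.75 without RV P0 replicate 1. The 2 upstream transcripts, with only 265 bases between them, had r = 0.28 and rho = 0.27 (exact permutation p = 0.339, adjusted p = 0.423), and 0.30 without the 2 farthest. It was 0.15 without LV P7 replicate 2, 0.16 without LV P0 replicate 1, 0.18 without RV P0 replicate 2 and up to 0.43 without other single libraries, the last without RV P0 replicate 3. Within a library these rows share depth and scaling. The reorderings treat RV and LV libraries of one replicate number as independent, which the labels do not settle. As a description, the r of NONMMUT034211 with the other tested rows lay between -0.55 and 0.49 from the 5th to the 95th percentile. With those of at least 1 FPKM it lay between -0.59 and 0.545. Its r values with TCONS_00030581 and TCONS_00030582 both lay above the 95th percentile of all tested rows and below that of the more abundant rows.

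The far upstream row had negative coefficients with the rows at the gene, none of which passed. NONMMUT034197 had r = -0.50 with NONMMUT034211 (rho = -0.28, exact permutation p = 0.219, adjusted p = 0.364), -0.38 with TCONS_00030581 (rho = -0.43, exact permutation p = 0.148, adjusted p = 0.364) and -0.31 with TCONS_00030582 (rho = -0.37, exact permutation p = 0.486, adjusted p = 0.540). With the 2 farthest libraries left out the first was -0.29. The other 4 pairs all included NONMMUT034207, which rests on 5 libraries, and had adjusted p values of 0.364 to 0.833 in the same exact permutation test. With so few distinct reorderings, nothing is read from these 4 results.

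For NONMMUT034211 and TCONS_00030582 most of the spread behind these correlations was that of the newborn hearts. Of the squared deviations of NONMMUT034211, 93.9% came from the 6 P0 libraries, against 2.19% from the 6 P3 and 3.93% from the 5 P7 libraries. For TCONS_00030582 the P0 share was 73.9%, and for TCONS_00030581 27%. Within P0 the deviations of TCONS_00030581 and NONMMUT034211 had r = 0.94 (n = 6 libraries, given without a test), against -0.05 within P3 and 0.32 within P7. TCONS_00030582 and NONMMUT034211 had another order, with r = 0.50 within P0, 0.41 within P3 and 0.93 within P7, also without a test. For TCONS_00030581 and TCONS_00030582 r was 0.42, -0.45 and 0.64 at these ages. So the 3 pairs did not share 1 age with the highest r. NONMMUT034211 was lowest in replicate 1 and highest in replicate 2 in both ventricles at P0, and so was TCONS_00030581. TCONS_00030582 was lowest in replicate 3 of RV and in replicate 1 of LV. The labels do not say whether RV and LV libraries of one number come from the same animal. The 6 P0 libraries may therefore come from fewer animals.

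**Figure D4:**
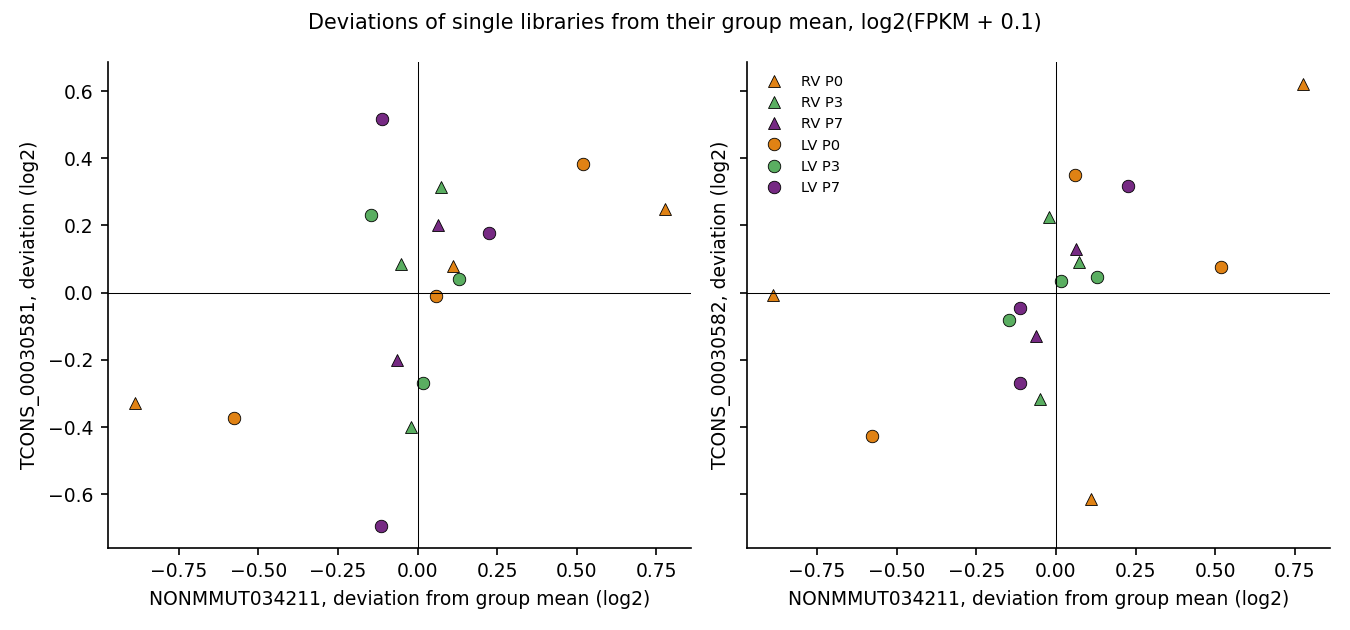
Deviation of each library from its group mean on the log2(FPKM + 0.1) scale, NONMMUT034211 on the x axis against TCONS_00030581 (left) and TCONS_00030582 (right), with RV as triangles, LV as circles and colour for age. The P0 libraries spread widest along the x axis, and r over all 17 libraries is 0.52 on the left and 0.50 on the right.

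Across all 17 libraries, age included, TCONS_00030581 and TCONS_00030582 were 2 of the rows most like NONMMUT034211, with r = 0.89 and 0.84. Among 1427 rows outside the stretch with a position and a mean of at least 1 FPKM, 0.561% and 1.40% had an r at least as high, and the median r was -0.31. The far NONMMUT034197 had r = 0.27. The 5 outside rows most like NONMMUT034211 were NONMMUT009538 on chromosome 11 at 48827577 to 48828287 (r = 0.95), NONMMUT006945 on chromosome 10 at 94780634 to 94787253 (r = 0.94), NONMMUT009140 on chromosome 11 at 31445793 to 31449651 (r = 0.92), TCONS_00031088 on chromosome 19 at 56813481 to 56821375 (r = 0.91) and NONMMUT005265 on chromosome 10 at 37779352 to 37783162 (r = 0.91). The most abundant of them, NONMMUT009140, averaged 9.78, 21.3 and 33.6 FPKM in RV and 8.31, 22.3 and 42.5 FPKM in LV at P0, P3 and P7. These r values hold the age pattern, and the stretch was chosen after differences between ages had been seen in it. They therefore describe likeness in the course over age and carry no p. The shares of outside rows are no test of the neighbourhood.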

How the data were processed

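Per the labels' protocols, total RNA of mouse ventricles was sequenced from strand-specific paired-end libraries. The submitters' processing notes name STAR 2.4.0j and mm10, while annotation, counting and scaling are not stated in those sources. For each library the authors deposited a table of IDs, positions and values. These deposited values are read as FPKM, an inference, because low values times the span of the row fall on multiples of 0.5 of a step constant within a library (58.1% to 61.3% of low values within 0.01 of one). The step gives the depth, and low rows therefore rest on few fragments.

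Rows with at least 0.1 FPKM in at least 2 of 17 libraries were put on the log2(FPKM + 0.1) scale and fitted by limma 3.58.1 (R 4.3.3), with group means, a variance trend and robust moderation, and p values were adjusted over all rows by Benjamini-Hochberg. Correlations used exact reorderings within groups in Python 3.11.15. Both were also run on simulated data. The simulated correlations were absent or strong, so how often r values like those reported here would pass was not measured. All rows overlapping the stretch are named. The most like rows are the 5 with the highest Pearson r with the most abundant row. The rows and lists were chosen with earlier results of these data known. Alternatives were other pseudocounts, no filter, median scaling, no variance trend, a replicate block, each library left out and, added after seeing the data, values summed per position.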

Additional observations from a re-analysis of the deposited data

How the results depend on the processing

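The counts of rows called between P7 and P0 kept to 3 or 4 of 5 in LV and 1 to 3 in RV when single libraries were left out, and the 1 was without RV P7 replicate 1. The RV count of 3 was 2 without a filter or without the variance trend. Between P3 and P0 the LV count of 1 became 0 with a pseudocount of 0.01 or 1, without a filter, without the variance trend or with the replicate block. It ranged from 0 to 2 without single libraries. It was 0 without LV P0 replicate 1 or 3, any LV P3 library, RV P3 replicate 3, LV P7 replicate 1, either RV P7 library or replicate 2 or 3 of RV P0, and 2 without RV P0 replicate 1. The RV count of 2 became 1 without a filter or without the variance trend, and ranged from 1 to 3 without single libraries, being 1 without RV P0 replicate 1 or 3 or any RV P3 library. The cause was not tested. The counts for P7 against P3, RV against LV and the difference between ventricles were 0 under all alternatives run.

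The P0 to P7 difference of NONMMUT034197 in RV, near 0, was -0.0057 with a pseudocount of 1 and -0.053 with the replicate block, and ranged from -0.37 to 0.38 without single libraries. With the replicate block 1 pair of rows passed in the co-variation test, NONMMUT034197 with NONMMUT034207 (r = 0.71, permutation within groups, adjusted p = 0.031), a row above 0 in 5 libraries. The block changed no other call than these. In that co-variation setting the mean of the replicate number was also removed, but reorderings stayed within groups only. The p is therefore not exact. NONMMUT034207 then also had deviations in libraries listed at 0, so nothing is read from this pair. Replicate numbers do not pair the libraries by the labels. Deviations of RV and LV libraries of one number correlated at 0.0451 to 0.172 over the tested rows, and those of other numbers at -0.13 to 0.0295. Depth limits TCONS_00030581 and TCONS_00030582 at P0, where single libraries hold 5.002 to 21.5 fragments.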
